A study of Mus musculus with 23 samples.

Results

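The 10 genes described here are 5 genes that neutrophils are known for (*Ly6g*, *S100a8*, *S100a9*, *Cxcr2* and *Csf3r*), 4 chemokines that attract neutrophils (*Cxcl1*, *Cxcl2*, *Cxcl3* and *Cxcl5*) and the cytokine gene *Il1b*. They were chosen by symbol, and all 10 were found among the 55449 genes of the deposited table. RNA-seq was carried out on the colon of male C57BL/6 mice of the genotype Cdx2Apcf/w, in which Cre recombinase driven by the *Cdx2* promoter deletes a floxed copy of the tumor suppressor *Apc* in the colon epithelium while the other copy is wild type. Mice entered at 6 to 8 weeks of age, were fed a 60% high-fat diet (HFD) and were colonized with BF BSHlow, *B. fragilis* 638R of low bile salt hydrolase (BSH) activity (bsh- in the labels), or with BF BSHhigh, the same strain carrying the bsh gene of another *B. fragilis* strain (bsh+ in the labels). The groups were normal colon after 2 weeks of HFD and colonization (4 libraries of BF BSHlow and 4 of BF BSHhigh), colon non-tumor tissues after 12 weeks (4 and 4) and colon tumor tissues after 12 weeks (4 and 3). Per the study's methods, mice drank antibiotics (neomycin, streptomycin and bacitracin) for 3 days before colonization, and BF BSHlow carries the empty vector. All mice thus shared the genotype, the diet, the antibiotics and a living *B. fragilis* strain. Neither mice without bacteria nor mice with intact *Apc* are among the libraries. The labels do not say which libraries came from the same mouse, so that p-values measure only the spread between these libraries. The 3 BF BSHhigh tumors have no number of their own in the table and are called replicates a, b and c.

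Neutrophils are short-lived white blood cells that leave the blood where chemokines of the CXC family are released. *Cxcl1*, *Cxcl2*, *Cxcl3* and *Cxcl5* bind the receptor CXCR2 on neutrophils, while the growth factor G-CSF acts through the receptor encoded by *Csf3r*. *S100a8* and *S100a9* encode the subunits of calprotectin, an abundant protein of the neutrophil cytosol that is measured in stool as a sign of gut inflammation. *Il1b* encodes interleukin-1β, which is made mostly by myeloid cells and induces the chemokine genes through the transcription factor NF-κB. *Ly6g* encodes a surface protein that serves as a marker of mouse neutrophils.

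The libraries held between 12401388 and 17903008 expected counts, and CPM in the following are counts per 1000000 of the library size after TMM adjustment. Colon epithelial markers (9 genes, among them *Epcam*, *Krt20* and *Cdx2*) summed to 14260 to 19570 CPM at 2 weeks, 9945 to 13520 CPM in non-tumor tissues and 4550 to 8615 CPM in tumors, and none was at 0. Tissue makeup differed between the groups by other markers too. The 5 smooth muscle markers summed to 5.27 to 152.5 CPM at 2 weeks, 1231 to 7101 CPM in non-tumor tissues and 58.2 to 211.5 CPM in tumors. The 13 squamous markers summed to at most 8.61 CPM outside tumors, to 84.7 to 220.1 CPM in BF BSHlow tumors and to 41.7 to 61.7 CPM in BF BSHhigh tumors. In such bulk samples, fewer cells of a type and less RNA per cell cannot be told apart.

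At 2 weeks, 9 of the 10 genes were close to absent. *Cxcl3* and *Cxcl5* had 0 counts in every BF BSHlow library of normal colon, and the largest count of any of the 9 genes in the 8 libraries was 14, that of *Il1b*. *Ly6g* stood apart from them, with 0.910, 1.42, 2.27 and 5.77 CPM in BF BSHlow and 68.5, 7.65, 33.7 and 28.8 CPM in BF BSHhigh mice. The plot of levels by gene and group shows all libraries.

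**Figure D1:**
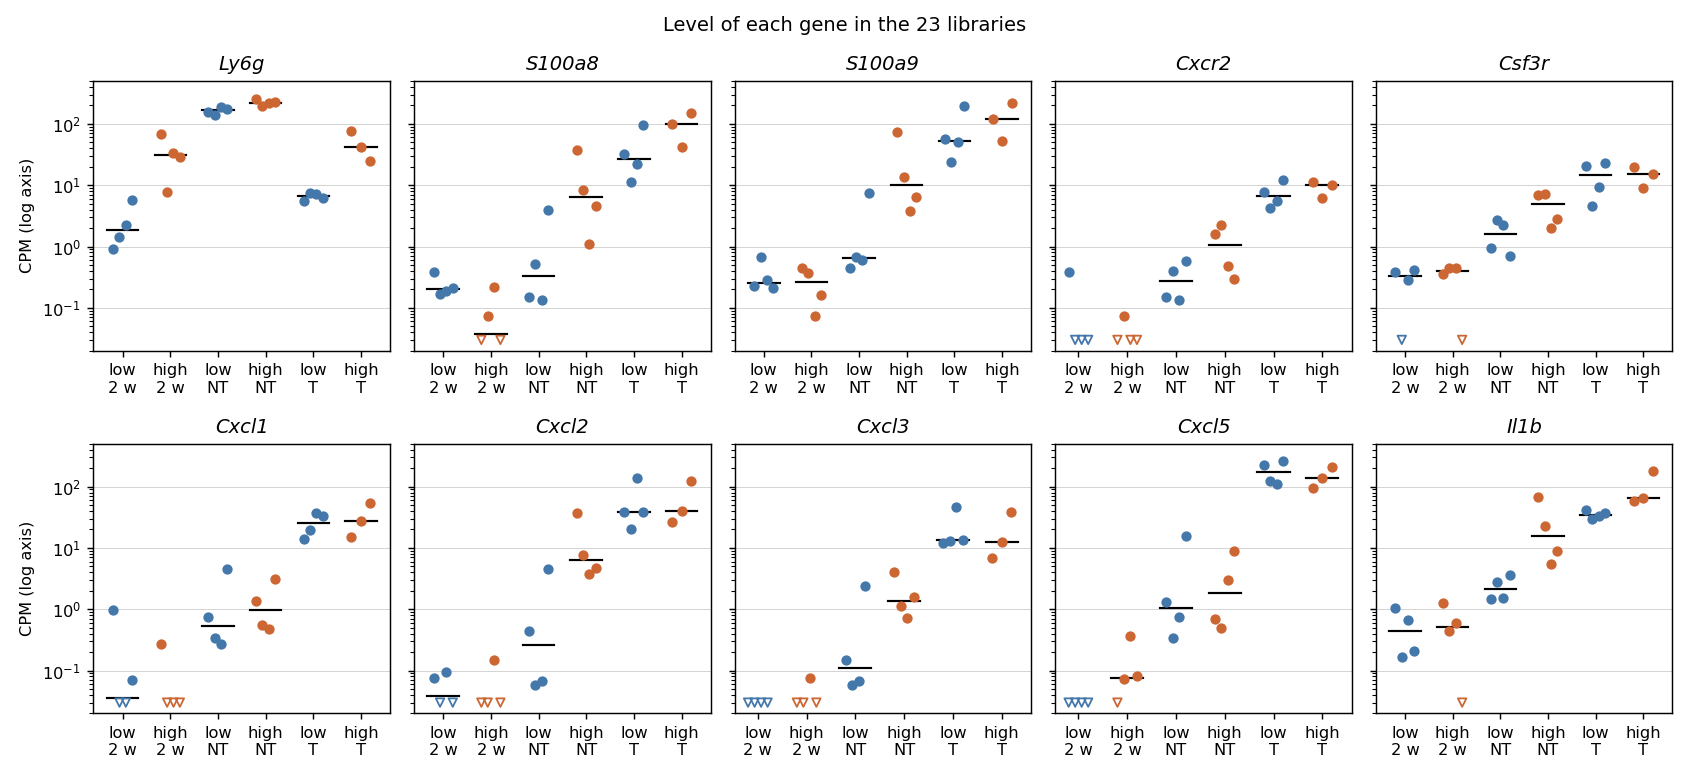
Level in CPM (log axis) of the 10 genes in 23 libraries, with BF BSHlow in blue and BF BSHhigh in orange, for normal colon at 2 weeks (2 w), non-tumor (NT) and tumor (T) tissues at 12 weeks. Each filled point is a library, open triangles at the lower edge are libraries with 0 counts, and lines are medians above 0. For 9 genes the highest library is a tumor, although replicate 1 of the BF BSHhigh non-tumor tissues lies above at least 1 tumor for S100a8, S100a9, Csf3r, Cxcl2 and Il1b. Ly6g is highest in non-tumor tissues.

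In BF BSHlow mice, tumors had more RNA of 9 of the 10 genes than non-tumor tissues, and less of *Ly6g*. The 9 genes were called higher at an adjusted p-value under 0.05 and a log2 fold change over 1 (quasi-likelihood test of edgeR, Benjamini-Hochberg over 16454 genes), a call made for 16.7% of all genes tested, and *Ly6g* was called lower, as were 19.5% of all genes. *Cxcr2* passed the filter on low counts only with the tumors in the fit. The groups did not overlap for any of the 10 genes: 9 were above, as were 29.3% of all genes, and 1 was below, as were 27.7%. The median log2 fold change of the 10 genes was 4.72, against 0.04 over all genes tested.

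The calprotectin genes lie next to each other on chromosome 3 of GRCm38 (*S100a8* at 90668978 to 90670035 on the plus strand and *S100a9* at 90692632 to 90695721 on the minus strand). *S100a9* had 0.445, 0.687, 0.613 and 7.35 CPM in BF BSHlow non-tumor tissues and 56.4, 24.2, 50.5 and 193.0 CPM in BF BSHlow tumors. This was a log2 fold change of 5.12 (standard error, SE, 1.15, edgeR adjusted p = 0.00134). *S100a8* had 0.148, 0.515, 0.136 and 3.87 CPM in non-tumor tissues and 31.9, 11.2, 22.3 and 97.7 CPM in tumors, a log2 fold change of 5.08 (SE 1.16, edgeR adjusted p = 0.00149). For both genes, replicate 4 was the highest of the 4 libraries in either tissue. Without replicate 4 of the non-tumor tissues the log2 fold changes were 7.09 for *S100a9* and 7.14 for *S100a8*.

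Both receptor genes were higher in BF BSHlow tumors. *Cxcr2*, on chromosome 1 (74153989 to 74161246), had at most 9 counts in a non-tumor library, or 0.136 to 0.581 CPM, and 7.85, 4.26, 5.48 and 12.3 CPM in tumors. Its log2 fold change was 4.49 (SE 0.64, edgeR adjusted p = 2.83e-05). *Csf3r*, on chromosome 4 (126024550 to 126044440), had 0.963, 2.75, 2.25 and 0.710 CPM in non-tumor tissues and 20.5, 4.67, 9.34 and 23.1 CPM in tumors, a log2 fold change of 3.09 (SE 0.60, edgeR adjusted p = 0.000402). Per length, *Cxcr2*, *Cxcl3* and *Csf3r* were the lowest members in these tumors, at medians of 2.19, 3.83 and 4.14 CPM per kilobase of exon, against 102.4 for *S100a9*.

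The 4 chemokine genes lie within a cluster on chromosome 5 of GRCm38, all on the plus strand, in the order *Cxcl5* (90759360 to 90761624), *Cxcl3* (90786103 to 90789600), *Cxcl1* (90891241 to 90893115) and *Cxcl2* (90903871 to 90905938). The bases just upstream of *Cxcl1*, *Cxcl2* and *Cxcl3* are shown because these genes rose together and share a run of letters there. They are from RefSeq (GRCm38.p6, plus strand, 5′ to 3′), end before the first annotated exon, and have matches to the NF-κB consensus (the κB consensus) and to TATAAA in capitals.
Cxcl1: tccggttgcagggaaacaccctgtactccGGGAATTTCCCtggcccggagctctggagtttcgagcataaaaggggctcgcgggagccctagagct
Cxcl2: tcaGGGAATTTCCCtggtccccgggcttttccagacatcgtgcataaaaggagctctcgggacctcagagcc
Cxcl3: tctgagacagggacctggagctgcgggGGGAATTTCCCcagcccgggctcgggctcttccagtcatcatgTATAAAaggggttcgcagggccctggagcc
They cover chr5:90891145-90891240 for *Cxcl1*, chr5:90903799-90903870 for *Cxcl2* and chr5:90786001-90786100 for *Cxcl3*. In each of the 3, the κB consensus was matched 2 times, in overlapping positions on the 2 strands that together spell the run of 11 capitals. Counted back from the RefSeq start as base -1, the matches covered bases -71 to -61 in *Cxcl1*, -97 to -87 in *Cxcl2* and -73 to -63 in *Cxcl3*. The promoter table used here held 9 of the 10 genes, all but *Cxcl5*, with 250 bases before each start. A further match to the κB consensus was found in *Csf3r* (-129 to -120). Of 32851 promoters of the same length, 7.25% held the κB consensus on either strand, 12.4% held TATAAA and 6.75% held TGANTCA, a motif of the factor AP-1. None of the 9 genes held TGANTCA, and *Cxcl5* could not be searched for any of these motifs. TATAAA was found at -30 to -25 in *Cxcl3* and *S100a8*, at -31 to -26 in *Il1b*, and farther away in *Ly6g*. Such a match is a description of letters, and binding was not measured.

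*Cxcl5* reached the highest level of the 4 chemokines in BF BSHlow tumors, with 222.0, 122.3, 109.3 and 259.2 CPM against 1.33, 0.344, 0.750 and 15.4 CPM in non-tumor tissues. The log2 fold change of *Cxcl5* was 5.28 (SE 0.996, edgeR adjusted p = 0.000329). Per length of exon, the median in these tumors was 92.4 CPM per kilobase for *Cxcl5*, 18.4 for *Cxcl2*, 13.8 for *Cxcl1* and 3.83 for *Cxcl3*. *Cxcl1* had 0.741, 0.344, 0.273 and 4.58 CPM in non-tumor tissues and 13.9, 19.3, 37.2 and 32.5 CPM in tumors (log2 fold change 4.07, SE 0.79, edgeR adjusted p = 0.000404). *Cxcl2* had 0.445, 0.0572, 0.0681 and 4.52 CPM in non-tumor tissues and 37.9, 20.6, 137.0 and 38.2 CPM in tumors (log2 fold change 5.48, SE 1.14, edgeR adjusted p = 0.000716). Replicate 3 was the highest tumor for *Cxcl2* and also for *Cxcl3*, which had 12.1, 13.1, 47.0 and 13.7 CPM in tumors against 0.148, 0.0572, 0.0681 and 2.39 CPM in non-tumor tissues. The log2 fold change of *Cxcl3* was 4.95 (SE 0.99, edgeR adjusted p = 0.000508). Without replicate 4 of the non-tumor tissues, the log2 fold changes were 7.83 for *Cxcl5*, 5.84 for *Cxcl1*, 8.31 for *Cxcl2* and 7.81 for *Cxcl3*, and without replicate 3 of the tumors that of *Cxcl2* was 4.63.

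Reads of *Cxcl2* and *Cxcl3* were partly shared by the counting. Their transcripts have a stretch of 157 identical bases, against 23 between *Cxcl1* and either of them, and their counts were not whole in 4 libraries, all of tumors. Their sum was 50.0, 33.7, 184.0 and 51.9 CPM in the 4 BF BSHlow tumors and 33.5, 53.2 and 163.1 CPM in the 3 BF BSHhigh tumors, so the split between the 2 genes is less certain than the total. Counts of the other 8 genes were whole in all 23 libraries.

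*Il1b* (chromosome 2, 129364570 to 129371139, minus strand) had 1.48, 2.81, 1.499 and 3.68 CPM in BF BSHlow non-tumor tissues. The 4 BF BSHlow tumors were close together, with 41.3, 29.1, 32.6 and 37.0 CPM. Its log2 fold change was 3.85 (SE 0.72, edgeR adjusted p = 0.000287). *Il1b* overlaps the antisense gene *Il1bos* in the annotation, and whether strand was used in counting is not given in the sources used here, so reads of the 2 genes may be mixed.

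In BF BSHhigh mice, 7 of the 10 genes were called higher in tumors than in non-tumor tissues and 1, *Ly6g*, was called lower. Over all genes the shares were 14.6% higher and 14.8% lower. The median log2 fold change of the 10 genes was 2.67, against 0.04 over all genes. Of the 10 genes, 6 had every tumor above every non-tumor library, as did 32.2% of all genes, and 1 had every tumor below, as did 29% of all genes. *Cxcl5* rose most, from 0.687, 0.498, 2.97 and 8.83 CPM in non-tumor tissues to 94.0, 139.4 and 211.4 CPM in tumors a, b and c (log2 fold change 5.55, SE 1.04, edgeR adjusted p = 0.000467). *Cxcl1* had 1.37, 0.560, 0.485 and 3.07 CPM in non-tumor tissues and 15.2, 27.8 and 53.8 CPM in tumors (log2 fold change 4.58, SE 0.83, edgeR adjusted p = 0.000336). *Cxcl3* and *Cxcr2* were called as well, with log2 fold changes of 3.38 (SE 0.91, adjusted p = 0.00586) and 2.95 (SE 0.58, adjusted p = 0.00069).

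The calprotectin genes, *Csf3r*, *Cxcl2* and *Il1b* were near the threshold in BF BSHhigh mice. *S100a9* had 73.7, 13.7, 3.82 and 6.51 CPM in non-tumor tissues and 119.9, 53.2 and 222.4 CPM in tumors, so that replicate 1 of the non-tumor tissues lay above tumor b. Its log2 fold change of 2.43 (SE 0.996) was not called (adjusted p = 0.0517 from edgeR), nor was that of *Cxcl2*, 2.27 (SE 0.95, adjusted p = 0.0547). *Cxcl2* had 36.4, 7.72, 3.70 and 4.79 CPM in non-tumor tissues and 26.6, 40.5 and 124.3 CPM in tumors. Replicate 1 of the non-tumor tissues was also the highest of its group for *S100a8* (37.2, 8.28, 1.09 and 4.56 CPM), for *Cxcl3* (64 counts) and for *Il1b* (66.7, 22.7, 5.45 and 8.83 CPM). Without it, *S100a9* (log2 fold change 4.02, adjusted p = 0.00444 from edgeR) and *Cxcl2* (3.55, adjusted p = 0.00898) were called and 9 genes were higher. *S100a8*, *Il1b* and *Csf3r* were called with log2 fold changes of 2.92, 1.95 and 1.61 (standard errors 0.99, 0.64 and 0.58, adjusted p = 0.0211, 0.0184 and 0.0291 from edgeR). *Il1b* was not called when the 2 groups alone were fitted (0.0644), where *Cxcl2* was (0.0449). Fitting all 23 libraries together called *S100a9* (0.0186) and *Cxcl2* (0.0225). Without tumor c, the highest tumor for *S100a8* (149.7 CPM), *S100a9* and *Il1b* (177.0 CPM), 4 genes were called higher, and *S100a8* (adjusted p = 0.0743), *Csf3r* (0.0643) and *Il1b* (0.136) were not. The call of *S100a8* was also lost without replicate 2 (adjusted p = 0.0541) or 4 (0.0547) of the non-tumor tissues, and that of *Csf3r* without replicate 3 (0.0739) or 4 (0.0736) of them or without tumor a (0.101). *S100a9* was called without tumor b (adjusted p = 0.0451) and *Cxcl2* without tumor a (0.0428).

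**Figure D2:**
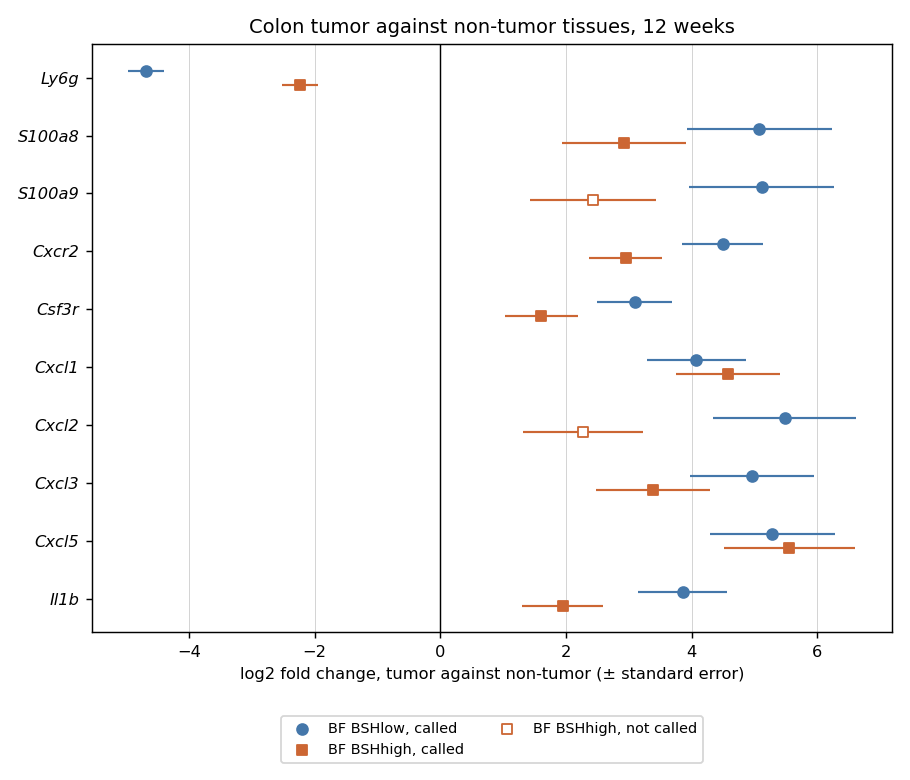
Log2 fold change (± standard error, edgeR) of tumor against non-tumor tissues at 12 weeks for the 10 genes, with BF BSHlow as blue circles and BF BSHhigh as orange squares; filled symbols were called. In BF BSHlow mice 9 genes lie right of 0 and were called, in BF BSHhigh mice 9 lie right of 0 and 7 were called, and Ly6g lies left of 0 in both.

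Markers of other cell types moved between these tissues as well. The 5 red blood cell markers, hemoglobin genes and *Alas2*, summed to 121.5 to 338.1 CPM in BF BSHlow non-tumor tissues and 343.4 to 3499 CPM in BF BSHlow tumors, and all 5 were called higher there. In BF BSHhigh mice they summed to 208.8 to 2460 CPM and 273.8 to 3163 CPM, and 0 were called. The 8 macrophage markers summed to 69.9 to 253.7 CPM in BF BSHlow non-tumor tissues and 150.2 to 407.3 CPM in tumors, with 0 called higher and 1 lower, and none of these markers was at 0 in a whole group. In replicate 1 of the BF BSHhigh non-tumor tissues, the highest of its group for the calprotectin genes, *Cxcl2* and *Il1b*, the red blood cell markers were the lowest of their group at 208.8 CPM. Replicate 4 of either BF BSHlow tissue, the highest for the calprotectin genes, was the lowest for these markers (121.5 and 343.4 CPM). Tumor c went the other way. It was the highest BF BSHhigh tumor for the calprotectin genes, *Cxcl2* and *Il1b* and for these markers (3163 CPM). The part of red blood cells and macrophages in the levels of the 10 genes was not tested.

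*Ly6g* is a marker of mouse neutrophils, but here it ran against the other genes of neutrophils. *Ly6g* (ENSMUSG00000022582.4, protein-coding) is on chromosome 15 of GRCm38 (75155240 to 75159126, plus strand) and overlaps no other annotated gene. It had 155.3, 139.2, 190.9 and 175.5 CPM in BF BSHlow non-tumor tissues, where *S100a8*, *S100a9* and *Cxcr2* were below 8 CPM, and 5.54, 7.33, 7.10 and 6.15 CPM in BF BSHlow tumors. The log2 fold change between these tissues was -4.68 (SE 0.29, edgeR adjusted p = 2.24e-08). In BF BSHhigh mice *Ly6g* had 252.6, 194.0, 216.9 and 223.6 CPM in non-tumor tissues and 76.7, 41.5 and 24.4 CPM in tumors, a log2 fold change of -2.23 (SE 0.28, edgeR adjusted p = 1.74e-05). Per length of exon, *Ly6g* was the highest of the 10 genes in non-tumor tissues, with a median of 175.6 CPM per kilobase in BF BSHlow and 233.8 in BF BSHhigh, and *S100a9* followed in BF BSHhigh with 19.35. In these tissues the level of *Ly6g* thus went against its name as a neutrophil gene, since it did not follow *S100a8*, *S100a9*, *Cxcr2* and *Csf3r*.

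**Figure D3:**
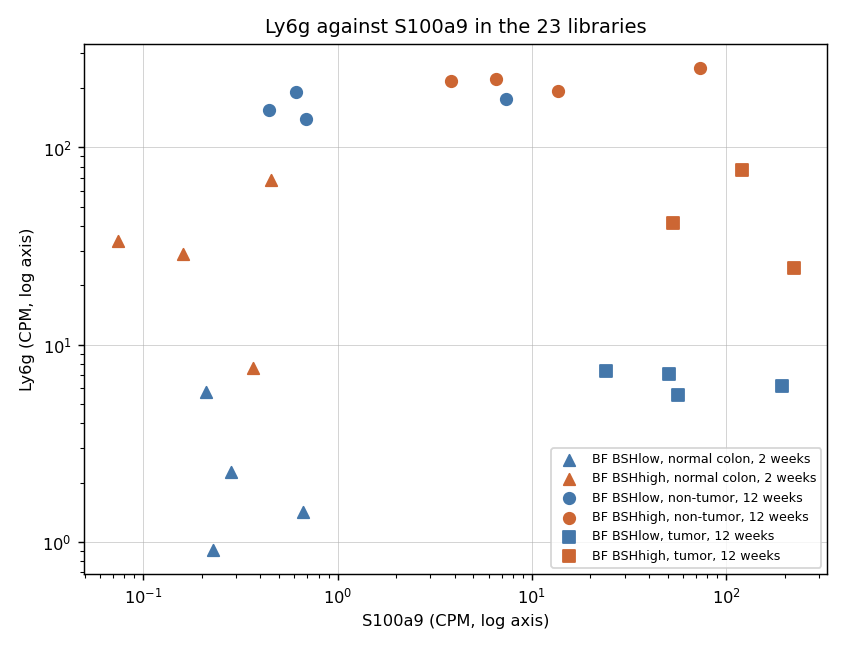
Ly6g against S100a9 in CPM (both log axes), with 1 point for each of the 23 libraries; triangles are normal colon at 2 weeks, circles non-tumor and squares tumor tissues at 12 weeks, in blue for BF BSHlow and orange for BF BSHhigh. Non-tumor libraries lie between 139.2 and 252.6 CPM of Ly6g whatever their S100a9, and tumors combine 24.2 to 222.4 CPM of S100a9 with 5.54 to 76.7 CPM of Ly6g.

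*Ly6g* was the member that differed between BF BSHhigh and BF BSHlow tumors. The 3 BF BSHhigh tumors, at 76.7, 41.5 and 24.4 CPM, lay above the 4 BF BSHlow tumors, at 5.54 to 7.33 CPM, and the log2 fold change was 2.85 (SE 0.35, edgeR adjusted p = 0.0343). It was the 1 member of 10 called higher, against 0.463% of all genes, and 0 were called lower. With any 1 library left out it ranged from 2.32 to 3.16. The adjusted p-value stayed under 0.05 without tumor a (0.0442) or c (0.0058) and was 0.0751 to 0.111 without BF BSHlow replicate 1, 2, 3 or 4 or without tumor b. Some marker sums also differed between these tumors. The 6 B and plasma cell markers summed to 90.1 to 120.6 CPM in BF BSHhigh and 0.635 to 6.87 CPM in BF BSHlow tumors, and the 6 T cell markers to 23.2 to 34.5 CPM and 2.00 to 13.7 CPM. The 5 monocyte markers summed to 380.7 to 750.5 CPM and 187.5 to 304.8 CPM. The 9 epithelial markers overlapped, at 5983 to 8615 CPM and 4550 to 8162 CPM. Of the markers tested by edgeR between these tumors, 1 of 4 B and plasma cell markers was called higher. The same held for 0 of 6 T cell and 0 of 5 monocyte markers. The monocyte sum need not follow most of its genes. From 2 to 12 weeks in BF BSHlow mice, 4 of its 5 genes were called higher, while its median went from 940.4 to 828.8 CPM. All 6 B and plasma cell markers, like *Ly6g*, were called lower in tumors than in non-tumor tissues in both groups of mice, and the part of remaining non-tumor tissue or of these cells in the level of *Ly6g* was not tested.

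The other 9 genes were not called between BF BSHhigh and BF BSHlow tumors. *Il1b* came closest, with 57.5, 66.0 and 177.0 CPM in tumors a, b and c against 29.1 to 41.3 CPM in BF BSHlow tumors. Its groups did not overlap, and its log2 fold change was 1.505 (SE 0.38, edgeR adjusted p = 0.126). Without tumor c the log2 fold change was 0.80. Together, *Ly6g* and *Il1b* were the 2 of 10 genes with every BF BSHhigh tumor above every BF BSHlow tumor, as were 7.93% of all genes. DESeq2 called both of them higher (adjusted p = 7.6e-13 and 0.00228), against 3.19% of all genes. The chemokines did not separate the groups: *Cxcl1* had 32.2 ± 19.7 CPM (SD, n = 3) in BF BSHhigh and 25.7 ± 10.96 CPM (SD, n = 4) in BF BSHlow tumors, *Cxcl2* had 63.8 ± 52.8 and 58.4 ± 53.0 CPM, *Cxcl3* had 19.5 ± 17.0 and 21.5 ± 17.0 CPM, and *Cxcl5* had 148.3 ± 59.2 and 178.2 ± 73.8 CPM. Their log2 fold changes lay between -0.28 and 0.32. Those of *S100a8*, *S100a9*, *Cxcr2* and *Csf3r* were 1.24, 0.69, 0.27 and -0.01, with standard errors of 0.71, 0.71, 0.39 and 0.54, and without tumor c that of *S100a8* was 0.78 and that of *S100a9* 0.07. The median over the 10 genes was 0.30, against -0.03 over all genes tested.

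In non-tumor tissues after 12 weeks, 9 of the 10 genes passed the filter on low counts and 0 were called between BF BSHhigh and BF BSHlow, as were 0% of all 14933 genes tested by edgeR. At an unadjusted p-value under 0.05, 6 of the 9 differed, as did 9.22% of all genes, and DESeq2 called 1, *Il1b* (adjusted p = 0.00689), against 0.261% of all genes called higher by it. *Il1b* had 66.7, 22.7, 5.45 and 8.83 CPM in BF BSHhigh, all above the 1.48 to 3.68 CPM of BF BSHlow, a log2 fold change of 3.43 (SE 0.79, edgeR adjusted p = 0.328). *Ly6g* also had non-overlapping groups, 194.0 to 252.6 against 139.2 to 190.9 CPM, but with a small log2 fold change of 0.42 (SE 0.11, adjusted p = 0.37). Over all genes 3.23% had every BF BSHhigh library above every BF BSHlow library. *S100a8*, *S100a9* and *Cxcl2* had log2 fold changes of 3.42, 3.40 and 3.35 (standard errors 1.24, 1.19 and 1.22, adjusted p = 0.486, 0.465 and 0.486 from edgeR). These values rested on few libraries: without replicate 1 of BF BSHhigh they were 1.96, 1.80 and 2.07, and without replicate 4 of BF BSHlow, the highest library of its group for these 3 genes, they were 5.47, 5.35 and 6.13. The value of *Il1b* without replicate 1 of BF BSHhigh was 2.37. *Csf3r* had a log2 fold change of 1.49 (SE 0.55) and *Cxcl3* of 1.45 (SE 1.04), which was 4.26 without replicate 4 of BF BSHlow and 0.74 without replicate 1 of BF BSHhigh. *Cxcl1* and *Cxcl5* had -0.15 and -0.48 (standard errors 0.94 and 1.23), and *Cxcr2*, with 4 to 36 counts per BF BSHhigh and 2 to 9 per BF BSHlow library, was not tested.

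In normal colon at 2 weeks, *Ly6g* was the 1 member that passed the filter on low counts, and it was not called. Every BF BSHhigh library (7.65 to 68.5 CPM) was above every BF BSHlow library (0.910 to 5.77 CPM), as were 2.09% of all genes, and the log2 fold change was 3.70 (SE 0.69, edgeR adjusted p = 0.34, unadjusted p = 0.000309). In this comparison 0.00727% of all genes were called higher by edgeR. DESeq2 called *Ly6g* (adjusted p = 0.00192) and 0.145% of all genes higher. *Ly6g* was also called without the filter on low counts (adjusted p = 0.0401 from edgeR) and with all 23 libraries in one fit (0.00876). The other 9 genes, at 0 to 14 counts per library, gave no detectable difference at this depth.

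**Figure D4:**
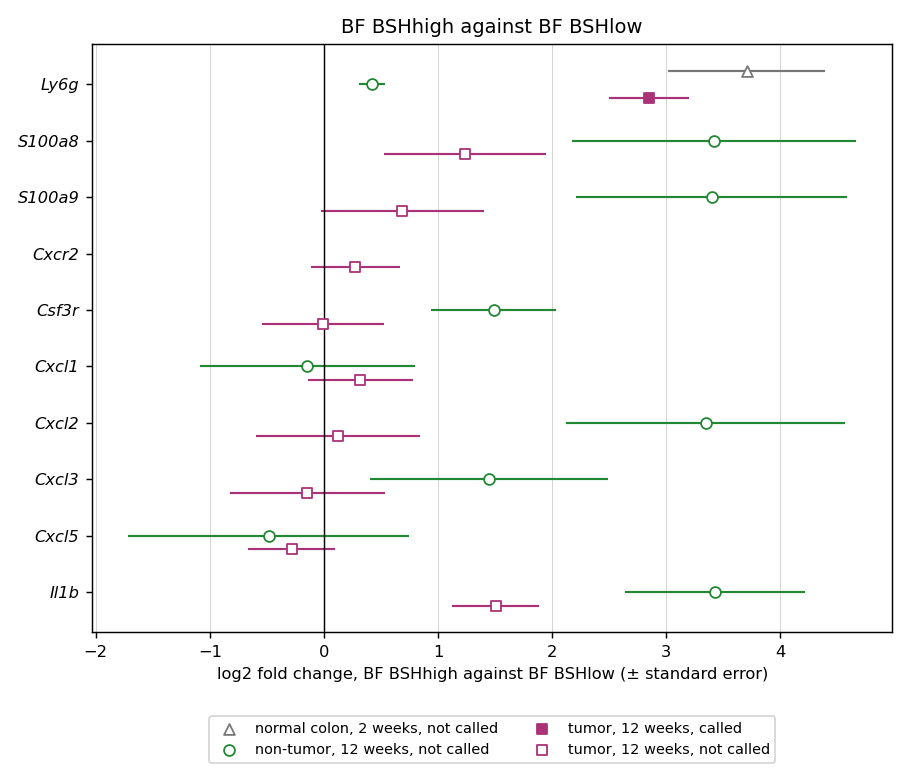
Log2 fold change (± standard error, edgeR) of BF BSHhigh against BF BSHlow for the genes that passed the filter on low counts, in normal colon at 2 weeks (grey triangle), non-tumor tissues (green circles) and tumors (purple squares) at 12 weeks; filled symbols were called. The value of Ly6g in tumors, 2.85, is the 1 that was called, and those of S100a8, S100a9, Cxcl2 and Il1b in non-tumor tissues, 3.35 to 3.43, were not.

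Whether the effect of BF BSHhigh differed between tumor and non-tumor tissues was tested with an interaction term over the 15 libraries of 12 weeks. *Ly6g* was the 1 member of 10 called, with a difference of 2.45 on the log2 scale (SE 0.37, edgeR adjusted p = 0.00839), against 0.972% of all genes called with the larger effect in tumors. Its adjusted p-value was 0.0686 when all 23 libraries were fitted together. For the other 9 genes the differences lay between -3.21 (*Cxcl2*, SE 1.46, adjusted p = 0.505) and 0.51 (*Cxcl1*, SE 1.10, adjusted p = 0.96). The smaller rises of *S100a8*, *S100a9*, *Cxcl2* and *Il1b* in BF BSHhigh than in BF BSHlow mice were therefore not called as different.

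From 2 weeks to 12 weeks, levels in tissue without tumor rose, together with markers of other cell types. In BF BSHlow mice, *Ly6g* (log2 fold change 5.95, SE 0.59, edgeR adjusted p = 1.8e-06), *Csf3r* (2.55, SE 0.74, adjusted p = 0.01), *Cxcl2*, *Cxcl3* and *Cxcl5* were called higher among the 9 genes tested, against 17% of all genes. Of the 9 genes, 3 passed the filter on low counts when the 2 BF BSHlow groups were fitted alone. The others passed only with the BF BSHhigh libraries in the fit, so this count depends on the filter. *Cxcl3* and *Cxcl5* had 0 counts in every library at 2 weeks and thus rose at least 2.74-fold (*Cxcl3*) and at least 18.3-fold (*Cxcl5*) by 12 weeks, taking 3 counts per library as the limit that a count of 0 allows. Replicate 4 of 12 weeks held 37 of the 41 counts of *Cxcl3* and 239 of the 274 of *Cxcl5*. Without it *Cxcl3* was at no more than 2 counts per library, under that limit, and the bound for *Cxcl5* was at least 3.33-fold. *Cxcl2* had 2 counts at 2 weeks and 78 at 12 weeks in all, a ratio of 31.9 after scaling for depth (95% exact interval 8.53 to 268.0, counting error only). Of those 78 counts, 70 were in replicate 4, without which *Cxcl2* (adjusted p = 0.358) and *Cxcl3* (0.0866) were not called, and the call of *Cxcl2* was also lost without replicate 1, 2 or 4 of 2 weeks (0.0558 to 0.0687). The call of *Cxcl2* was lost with all 23 libraries in one fit too (0.0778). Without replicate 1 of 2 weeks, *Cxcl1* (adjusted p = 0.0144) and *Il1b* (0.0446) were called.

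All 9 genes tested in BF BSHhigh mice were called higher at 12 weeks, against 16.8% of all genes. Only *Ly6g* also passed the filter on low counts in the 2-week libraries alone. The others were tested because of their level at 12 weeks, which favors a call of higher, so the 2 shares are not alike. Among them, *Ly6g* had a log2 fold change of 2.69 (SE 0.48, edgeR adjusted p = 0.000299), *S100a9* of 6.51 (SE 1.21, adjusted p = 0.000455) and *Il1b* of 5.51 (SE 0.87, adjusted p = 0.000122). *Il1b* went from 28 counts in the 4 libraries of 2 weeks to 1641 in those of 12 weeks, and *S100a8* from 4 to 808. Replicate 1 of 12 weeks held 1068 of the counts of *Il1b*, 596 of those of *S100a8* and 1179 of the 1549 of *S100a9*. Without it the log2 fold changes were 4.41 for *Il1b*, 5.72 for *S100a8* and 4.89 for *S100a9*, and all 3 were still called. The calls of *Cxcl1* and *Cxcl5* were lost without replicate 4 of the non-tumor tissues (adjusted p = 0.0711 and 0.0921) and without replicates 2, 3 or 4 (*Cxcl1*, 0.0556 to 0.06) or 1, 2 or 4 (*Cxcl5*, 0.0642 to 0.0651) of 2 weeks. All 5 smooth muscle markers, all 8 macrophage markers and all 5 red blood cell markers were called higher in both groups at 12 weeks, and the part of tissue makeup in these differences was not tested. Age, time on the diet and time with the bacteria cannot be told apart here.

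Other genes of neutrophils were described from a list of 24. Those of primary granules, *Mpo*, *Elane*, *Prtn3* and *Ctsg*, which are transcribed before neutrophils leave the bone marrow, had at most 0.436 CPM in any library. In BF BSHlow tumors against non-tumor tissues, 12 of the 18 genes tested were called higher and 1, *Cd177*, was lower. In non-tumor tissues alone 11 of the 24 passed the filter on low counts. The others of the 18 were tested because of their level in tumors, which favors a call of higher in either group of mice. Over all genes 16.7% were called higher and 19.5% lower. The median of the 18 was 4.21, against 0.04 over all genes. The largest changes were those of *Padi4*, which encodes the histone-modifying enzyme of neutrophil traps (6.14, SE 0.996, edgeR adjusted p = 9.69e-05), the metalloproteinase *Mmp9* (5.88), the neutrophil collagenase *Mmp8* (4.92), and the receptors *Clec4d* (4.53) and *Trem1* (4.49). In BF BSHhigh mice 6 of 18 were called higher and 1, *Cd177*, lower, against 14.6% and 14.8% of all genes. The median was 2.12, again against 0.04. *Mmp9* came first (5.94, SE 0.77, edgeR adjusted p = 2.06e-05). It was followed by *Padi4* (3.75), *Stfa2l1* (3.23), the formyl peptide receptor *Fpr2* (2.97) and the granule protein gene *Ltf* (2.89). The value of *Mmp8* fell to 2.42 without BF BSHlow tumor 4 (adjusted p = 0.106), and *Stfa2l1* was not called without tumor c (0.0908) or replicate 4 of the BF BSHhigh non-tumor tissues (0.0522). Without replicate 1 of these *Stfa2l1* was at 6.12, and *Padi4* was at 6.64 without replicate 2. Between BF BSHhigh and BF BSHlow, edgeR called 0 of the 18 genes tested in tumors, 0 of 11 in non-tumor tissues and 0 of 6 in normal colon. DESeq2 called 1 in tumors (*Cd177*), 1 in non-tumor tissues (*Trem1*) and 0 at 2 weeks. Over all genes DESeq2 called 3.19%, 0.261% and 0.145% higher in these tissues.

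*Cd177* encodes a surface protein of neutrophils and, like *Ly6g*, was higher in non-tumor tissues than in tumors; it is singled out after its values were seen. It had 97.7 to 434.1 CPM in BF BSHlow and 328.9 to 855.4 CPM in BF BSHhigh non-tumor tissues, and 30.0 to 91.2 CPM in BF BSHlow and 191.8 to 327.4 CPM in BF BSHhigh tumors. The log2 fold change of tumor against non-tumor tissues was -2.27 in BF BSHlow (SE 0.47, edgeR adjusted p = 0.000751) and -1.35 in BF BSHhigh mice (SE 0.51, adjusted p = 0.034). Between BF BSHhigh and BF BSHlow tumors it was 2.20 (SE 0.38, adjusted p = 0.0536), with no overlap. DESeq2 called it (adjusted p = 3.96e-07), as did edgeR without the filter on low counts (0.0119), with all 23 libraries (0.0141) or without tumor c (0.0488). The lower level in BF BSHhigh tumors was not called without replicate 1, 3 or 4 of the non-tumor tissues or without tumor b or c (0.0537 to 0.119). Unlike *Ly6g*, *Cd177* was abundant at 2 weeks in BF BSHlow too, at 47.4 to 95.1 CPM.

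Of 18 other genes that act in neutrophil recruitment, 15 were tested in the tissues of 12 weeks. In non-tumor tissues alone 8 passed the filter on low counts. The others were tested because of their level in tumors, which favors a call of higher. In BF BSHlow tumors 11 were called higher and 2 lower, against 16.7% and 19.5% of all genes. In BF BSHhigh tumors 10 were called higher and 1 lower, against 14.6% and 14.8% of all genes. The medians over the 15 genes were 2.43 and 2.17 (0.04 over all genes). The called genes that changed most were *Ccl3* (6.15), the interleukin-23 subunit gene *Il23a* (6.00), *Csf2* (5.48), *Lcn2* (5.30), an antimicrobial protein, and *Csf3* (5.15), which encodes G-CSF, in BF BSHlow mice. They were, in BF BSHhigh mice, *Lcn2* (6.06), *Il23a* (5.50), *Il17a* (5.35), *Csf2* (5.25) and *Csf3* (5.04). *Csf3*, the ligand of the receptor encoded by *Csf3r*, stayed low in tumors at 0.196 to 2.10 CPM in BF BSHlow and 0.362 to 9.53 CPM in BF BSHhigh. The values of *Csf3* rested on single tumors: without tumor 3 of BF BSHlow it was at 4.13 (adjusted p = 0.0557) and without tumor c of BF BSHhigh at 2.34 (0.123). *Il17a*, whose product induces neutrophil chemokines in epithelium, had 0.147 to 1.10 CPM in BF BSHlow and 4.39 to 10.98 CPM in BF BSHhigh tumors, a log2 fold change of 3.45 (SE 0.69, edgeR adjusted p = 0.0687) that was not called. *Il17a* was called without the filter on low counts (0.0245), with all 23 libraries (0.00853) and by DESeq2 (4.77e-05). Between BF BSHhigh and BF BSHlow tumors 0 of 15 genes were called by edgeR, and DESeq2 called 1 higher, *Il17a*, and 1 lower, *Ppbp*. Of all 15325 genes, DESeq2 called 3.19% higher and 45 genes lower.

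Of 17 other genes of the interleukin-1 pathway, 4 were higher and 4 lower in BF BSHlow tumors than in non-tumor tissues, at a median of -0.30 over the 17 (0.04 over all genes). These counts are close to the shares over all genes (16.7% higher and 19.5% lower). *Il1a* (4.84), the inflammasome sensor *Nlrp3* (3.95) and the decoy receptor *Il1r2* (3.61) rose with *Il1b*, while *Pycard*, the inflammasome adaptor, fell by 3.51 on the log2 scale, from 175.3 to 15.5 CPM on average, and *Casp1*, which cleaves the precursor of interleukin-1β, fell by 2.46. In BF BSHhigh mice 4 were higher and 3 lower, against 14.6% and 14.8% of all genes. There *Il1a* was at 3.19, *Il1r2* at 2.54, *Nlrp3* at 1.95, *Pycard* at -2.09 and *Il18* at -1.40. The rise of *Nlrp3* in BF BSHhigh mice was 3.01 without replicate 1 of the non-tumor tissues and was not called without replicate 2, 3 or 4 of them or without tumor b or c (adjusted p = 0.0586 to 0.132). The epithelial markers also had lower sums in tumors, as given above, and their part in these differences was not tested. Between BF BSHhigh and BF BSHlow tumors 0 of 17 were called by edgeR, and DESeq2 called 2 higher, *Casp1* and *Pycard*, against 3.19% of all genes.

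Of 16 NF-κB response genes, 5 were higher and 4 lower in BF BSHlow tumors, at a median of 0.08, and 5 were higher and 0 lower in BF BSHhigh tumors, at a median of 0.19. Over all genes 16.7% were called higher and 19.5% lower in BF BSHlow tumors, and 14.6% and 14.8% in BF BSHhigh tumors. The share of lower genes of this list in BF BSHlow tumors is close to that over all genes. The highest were *Ptgs2* (4.05), which encodes the inducible cyclooxygenase, *Il6* (3.75) and *Tnf* (2.34) in BF BSHlow mice, where *Ccl20* (-1.61) and *Tnfaip3* (-1.48) were lower, and *Il6* (4.79), *Ptgs2* (2.68), *Tnf* (2.22), *Tlr2* (1.68) and *Bcl3* (1.18) in BF BSHhigh mice. Without tumor c, *Il6* (2.67, adjusted p = 0.117) and *Ptgs2* (1.71, 0.0556) were not called in BF BSHhigh mice, and without replicate 4 of the BF BSHlow non-tumor tissues *Il6* was at 7.23. Between BF BSHhigh and BF BSHlow, 0 of the genes were called by edgeR or DESeq2 in any of the 3 tissues. These 4 lists were chosen with earlier results of the data known and are a description only.

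At 12 weeks compared with 2 weeks, 2 of the 4 lists had most of their tested genes called higher in tissue without tumor. These were the lists most cut by the filter on low counts. In the 2-week libraries alone, 6 neutrophil and 3 recruitment genes passed it, against 11 and 8 tested here. For the interleukin-1 and NF-κB lists it was 14 each, against 17 and 15. Genes tested because of their level at 12 weeks favor a call of higher. Over all genes 17% were called higher in BF BSHlow and 16.8% in BF BSHhigh mice, at medians of 0.0 and 0.03. Of the neutrophil list 6 of 11 genes tested were called higher in BF BSHlow and 10 of 11 in BF BSHhigh mice, with 0 lower and medians of 2.08 and 2.51. *Mmp9* (3.59), *Clec4d* (2.67), the oxidase subunit genes *Cybb* (2.64) and *Ncf1* (2.08) and the integrin gene *Itgb2* (1.88) led in BF BSHlow, and *Clec4e* (6.16), *Trem1* (5.47), *Clec4d* (3.94), *Mmp9* (3.42) and *Cd177* (3.35) led in BF BSHhigh mice. All 8 macrophage markers were called higher in both groups as well, and the part of macrophages in these values was not tested. *Clec4d* in BF BSHlow mice was not called without any 1 of the 8 libraries (adjusted p = 0.0515 to 0.105), and *Mmp9* was at 2.07 without replicate 4 of 12 weeks. Of the recruitment list 6 of 8 were called higher in either group, among them *Lcn2* (5.21 and 4.19), the platelet chemokine gene *Pf4* (3.18 and 3.95), the complement receptor gene *C5ar1* (2.60 and 3.39) and *Selp* (2.50 and 4.26), which encodes the P-selectin of vessels. *Lcn2* in BF BSHlow mice was at 3.17 without replicate 4 of 12 weeks and at 8.81 without replicate 1 of 2 weeks, and *Pf4* in BF BSHhigh mice was at 6.17 without replicate 3 of 2 weeks. Of the interleukin-1 list 5 of 17 genes were called higher in either group and 0 lower, with medians of 0.02 and 0.13. Of the NF-κB list 5 of 15 were called higher in BF BSHlow and 4 of 15 in BF BSHhigh mice, with medians of 0.35 and 0.43, and 1, the receptor gene *Tlr2*, was lower in both (-1.78 and -1.91).

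Within groups, *S100a8*, *S100a9*, *Cxcr2*, *Csf3r* and *Il1b* tended to be high in the same libraries. Pearson's r between pairs of them ran from 0.22 (*S100a9* and *Csf3r*) to 0.86 (*S100a8* and *S100a9*). *Ly6g* did not follow them, with r from -0.35 (*Cxcr2*) to 0.03 (*Csf3r*). Over the 23 libraries, after subtracting group means from log2 CPM, the genes most like *S100a9* among 14399 genes were *S100a8* (Pearson's r = 0.86), *5033406O09Rik* (0.85), *Lect2* (0.83), *Mmp8* (0.82) and *Dpep1* (0.81). Those most like *Cxcl2* were *Cxcl3* (0.94), with which it shares reads, *Il1a* (0.85), and the genes *Asprv1* (0.85), *Krt23* (0.82) and *Spats2* (0.80). Those most like *Il1b* were *Fbxo44* (0.85), *Nova2* (0.80), *9130221H12Rik* (0.79), *Rnf181* (0.79) and *Gm15889* (0.72). *Ly6g*, for which the list was made after its values were seen, was most like *Dyrk2* (0.85), *Samd8* (0.81), *Mfn1* (0.78), *Zfyve16* (0.78) and *Ttc26* (0.78), and its r with *S100a9* and *Cxcr2* was -0.06 and -0.35. Between pairs of the other 9 members, r ran from -0.34 (*Csf3r* and *Cxcl5*) to 0.94 (*Cxcl2* and *Cxcl3*). These are descriptions over libraries that share depth, tissue makeup and handling.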

How the data were processed

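Total RNA of mouse colon was sequenced in 23 libraries. Reads were trimmed with Cutadapt and aligned to mm10 with STAR, and RSEM gave the expected counts that the authors deposited, without normalization. The identifiers are those of GENCODE M21 on GRCm38. Of the values, 4.24% are not whole. Per the labels a stranded total RNA kit was used, while the study's methods name a stranded mRNA kit. 1 row without a gene name and 1 with text in place of a count (*Fgf6*) were left out. The header repeats other names over columns 14, 15 and 16; these were taken as the 3 BF BSHhigh tumors, as a group, because at least 1996 of 1997 rows of a supplementary table agree within a rounding of counts. No column was left unused. No pair of replicates had the same counts within sampling noise (chi-square per degree of freedom 16.6 to 126.1).

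Counts were rounded and tested in R 4.3.3 with edgeR 4.0.16 (TMM, filterByExpr, quasi-likelihood test, Benjamini-Hochberg). Genes were called if the adjusted p-value was under 0.05 and the log2 fold change past 1 in either direction. A standard error is the log2 fold change divided by the square root of F. Fits held the 2 groups compared (BF BSHhigh against BF BSHlow), the 15 libraries of 12 weeks (tumor against non-tumor, interaction) or the 16 without tumors (12 against 2 weeks). Alternatives were DESeq2 1.42.0, RLE scaling, no filter, wider and narrower fits, a block on replicate numbers and fits without each library in turn. Log2 CPM used a prior count of 2, and scripts were tested on simulated data. Tables were made with Python 3.11.15 and pandas 2.3.3. Named genes are the 10 members, up to 5 called genes of each list with the largest change per comparison, and the 5 genes most like *S100a9*, *Cxcl2* and *Il1b* with a mean of at least 1 CPM. The genes most like *Ly6g*, the account of *Cd177* and the genes called by DESeq2 alone were added after values were seen. Members, lists and rules were chosen with earlier results of these data known.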

Additional observations from a re-analysis of the deposited data

Results flagged for a closer look

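In groups of 4 libraries, the highest or lowest library of a gene was far from the other 3 by Dixon's criterion on log2 CPM in 5 of 42 cases, where chance flags about 1 in 20. In BF BSHlow non-tumor tissues, replicate 4 was high for *S100a9* (7.35 CPM) and *Cxcl3* (2.39 CPM). In BF BSHlow tumors, replicate 3 was high for *Cxcl3* (47.0 CPM). At 2 weeks, replicate 1 of BF BSHlow was high for *Cxcr2* (0.379 CPM, 5 counts), and replicate 4 of BF BSHhigh was low for *Csf3r* (0 CPM, 0 counts).

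The effect of BF BSHhigh on *Ly6g* was larger in tumors than in non-tumor tissues by 2.45 on the log2 scale (interaction term of edgeR, adjusted p = 0.00839).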

How the results depend on the processing

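Of 926 recomputed log2 fold changes of single members, 855 kept their direction and their side of the thresholds, 30 lost a call, 17 gained one and 24 changed sign, none of these 24 called. Of 1109 recomputed values of genes named from the lists, 1065 kept them, 37 lost a call and 7 gained one. The number of members called higher between BF BSHhigh and BF BSHlow at 2 weeks was 0 and became 1 with DESeq2, with no filter and with all 23 libraries in one fit. In non-tumor tissues DESeq2 gave 1 in place of 0. In tumors it gave 2 in place of 1, and leaving out a library gave 0 to 1. The interaction gave 0 in place of 1 with all 23 libraries. Between BF BSHhigh tumor and non-tumor tissues 4 to 9 members were called when a library was left out, against 7. For 12 against 2 weeks in BF BSHlow mice, 5 members became 3 with the 2 groups alone, where 3 passed the filter, and 3 to 6 without a library. With a replicate block this was 1. Same-numbered libraries did not deviate together (correlations -0.255 to 0.324), so the block has no basis in the design, and it changed no other count by over 1.5 times. The block turned the non-tumor values of *Cxcl1* and *Cxcl5* to 0.34 and 0.093. In tumors, *Csf3r* was 0.013 with all 23 libraries. Without single libraries, values in tumors ranged from -0.30 to 0.32 (*Csf3r*), -0.28 to 0.66 (*Cxcl1*), -0.81 to 0.97 (*Cxcl2*) and -1.15 to 0.57 (*Cxcl3*). In non-tumor tissues they ranged from -0.89 to 1.57 (*Cxcl1*) and -1.68 to 2.00 (*Cxcl5*), and interactions from -1.25 to 1.24 (*Cxcl1*) and -2.28 to 1.44 (*Cxcl5*). The cause was not tested. With 3 or 4 libraries per group and under 10 counts of most members per library at 2 weeks, smaller differences could not be detected.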

Other observations

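The balance of the calprotectin subunits differed between tumors, a pattern noticed after the values were seen and not tested. Per length of exon, the ratio of *S100a8* to *S100a9* was 0.629, 0.590 and 0.506 in BF BSHhigh tumors a, b and c and 0.425, 0.349, 0.331 and 0.381 in the BF BSHlow tumors, with no overlap. In non-tumor tissues, where counts were lower, it was 0.167 to 0.564 in BF BSHlow and 0.215 to 0.527 in BF BSHhigh.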
